A study of Mus musculus with 8 samples.

Results

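The genes described here carry the prolactin and growth hormone signal in islets and, downstream of it, make serotonin. The 8 member genes are Prlr, Ghr, Stat5a, Stat5b, Cish, Socs2, Tph1 and Tph2, and all array probe sets were taken that the platform annotation gives to one of these genes alone. The annotation names 16 such probe sets for 7 of the 8 genes, out of 45037 probe sets that are not array controls. Prlr, the prolactin receptor itself, is named by none of them and was not analysed here. Of the 16 probe sets, 10 were detected on at least 4 of the 8 arrays and entered the strain comparison, and they cover 5 genes (Ghr, Stat5a, Stat5b, Cish and Socs2). The comparison as a whole covered 20772 probe sets and 10891 genes.

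Islet RNA came from inbred mice of 2 strains, AKR/J and C57Bl/6J, and both had eaten a high-fat diet for 3 months. There were 4 samples per strain, each pooled from the islets of 2 mice and measured on its own Affymetrix mouse array, with numbers 1 to 4 for AKR/J arrays and 5 to 8 for C57Bl/6J arrays. The labels give neither age nor sex, and mice on other diets were not analysed here. An islet preparation is a bulk sample, so fewer cells of a type and less RNA per cell cannot be told apart. Between 43.7% and 48.1% of probe sets were detected per array. The islet hormones Ins2, Gcg, Sst and Ppy were detected on all 8 arrays. Of 14 tested acinar markers 13 were lower in AKR/J, as were 7 of 11 macrophage markers, whereas 4 of 10 endothelial markers and 10 of 14 cell cycle genes were higher. Over all genes tested, 7.79% were higher and 8.53% lower in AKR/J. Acinar, macrophage, duct, fat cell, endothelial and cell cycle levels (mean log2 value over the list) did not overlap between strains. Those of beta cell, other endocrine, lymphocyte and stromal markers did. Acinar markers averaged 12.55 to 12.73 in AKR/J against 13.49 to 13.60 in C57Bl/6J, and macrophage markers 6.10 to 6.51 against 6.88 to 7.06. The small number of arrays sets the precision of all values.

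Prolactin, growth hormone and the placental lactogens bind receptors that have no enzyme activity of their own and signal through the kinase JAK2. JAK2 phosphorylates STAT5A and STAT5B, which then enter the nucleus and turn on genes such as Cish and Socs2, whose products feed back to dampen the receptor. In the islets of pregnant mice this pathway is known for driving beta cell expansion, in part by inducing Tph1, the first enzyme of serotonin synthesis outside the brain. STAT5 dimers bind a palindrome with the letters TTCNNNGAA.

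That palindrome is shown here because Cish was the member that varied most from array to array. RefSeq promoter windows (GRCm38.p6, from 250 bases before to 50 bases after a transcript start) were found for Ghr, Stat5a, Stat5b, Cish, Tph1 and Tph2, 10 windows in all. Socs2 had no window in the table, so its promoter was not analysed here. The letters TTCNNNGAA, which read the same on both strands, occur in 8.30% of all 32851 windows of this length and at least 2 times in 0.457%. Among the 10 member windows they occur only in that of Cish, at chr9:107296409-107296708 on the plus strand. The window of Cish holds 2 copies, TTCCTGGAA at the annotated start (offset 0) and TTCTTGGAA at offset 11, with 2 bases between them. Among 16 genes with a window from a list described as prolactin or STAT5 targets, Bcl6, a transcriptional repressor, had the only other window with more than 1 copy. It lies at chr16:23981234-23981533 on the minus strand and holds 3 copies, TTCCTGGAA, TTCTGTGAA and TTCCGGGAA. Capitals mark the palindromes in both sequences, and a match is a description of letters, not of binding.

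Cish: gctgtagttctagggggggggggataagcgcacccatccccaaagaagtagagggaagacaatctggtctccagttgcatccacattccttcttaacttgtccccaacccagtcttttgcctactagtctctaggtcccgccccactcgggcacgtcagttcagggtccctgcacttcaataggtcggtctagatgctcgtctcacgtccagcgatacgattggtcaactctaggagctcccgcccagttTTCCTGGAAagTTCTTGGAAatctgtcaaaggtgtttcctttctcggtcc
Bcl6: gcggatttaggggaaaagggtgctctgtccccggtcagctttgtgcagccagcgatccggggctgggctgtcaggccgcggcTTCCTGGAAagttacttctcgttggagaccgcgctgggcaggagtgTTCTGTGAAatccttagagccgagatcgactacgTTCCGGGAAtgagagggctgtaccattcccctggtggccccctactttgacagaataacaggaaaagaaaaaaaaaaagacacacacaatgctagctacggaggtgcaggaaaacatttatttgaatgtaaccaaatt

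Ghr, the growth hormone receptor, was detected on every array, and its 3 tested probe sets did not move together between strains. Alternative splicing of this gene gives a membrane receptor and a soluble binding protein; which transcript each probe set measures was not analysed here. Probe set 1451501_a_at read 10.34, 10.22, 10.15 and 10.33 (log2 GCRMA) on the AKR/J arrays. On the C57Bl/6J arrays it read 9.96, 9.95, 9.75 and 9.90, so that all 4 AKR/J arrays lay above all 4 C57Bl/6J arrays. It was higher in AKR/J by 0.37 ± 0.08 (SE, n = 4 per strain; 95% interval 0.19 to 0.55), which is 1.29-fold (limma, Benjamini-Hochberg adjusted p = 0.0174). The deposited Signal of the same probe set was 972.2, 811.0, 924.8 and 1096.7 in AKR/J and 834.6, 748.2, 777.8 and 753.9 in C57Bl/6J. On that scale the strains overlapped and the difference of 0.26 did not pass (limma adjusted p = 0.188). The call was also lost without array 1 (difference 0.34, adjusted p = 0.0501) and without array 4 (0.34, adjusted p = 0.0520).

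Probe set 1417962_s_at, the brightest of Ghr, read 11.12, 11.08, 11.21 and 11.13 in AKR/J and 11.19, 11.31, 11.35 and 11.19 in C57Bl/6J. The strains met at their edges, with a difference of -0.13 ± 0.07 (SE, n = 4 per strain) and a limma adjusted p of 0.254. Probe set 1451871_a_at read 7.82, 7.77, 7.83 and 7.76 against 8.02, 8.10, 7.80 and 7.61, a difference of -0.09 with a 95% interval of -0.34 to 0.16. The sign of a Ghr difference therefore depends on the probe set that stands for the gene. Within each array, the log2 gap between 1451501_a_at and 1417962_s_at differed between the strains by 0.49, and every AKR/J array lay on the same side of every C57Bl/6J array. With 70 ways to assign arrays to strains, a two-sided exact permutation test gave p = 0.0286, the smallest it can give, and 0.0857 after adjustment over 6 pairs of probe sets of one gene. The gap between 1451501_a_at and 1451871_a_at differed by 0.46 (exact p = 0.0286, adjusted 0.0857). The remaining 4 pairs, of Ghr, Stat5a, Stat5b and Socs2, gave exact p-values of 0.0571 to 0.714. On the Signal scale the first gap was 0.28 (exact p = 0.0571), and without array 7 it was 0.42 (exact p = 0.0571).

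Of the 10 tested member probe sets, this 1 of Ghr passed at an adjusted p under 0.05, and it was also the only one whose strains did not overlap. Over all 20772 probe sets 14.3% passed and 22.9% did not overlap, so the share among the members was near the background. With each gene read from its brightest probe set, 0 of 5 member genes passed in limma, against 7.79% of all genes higher and 8.53% lower in AKR/J. At an unadjusted p under 0.05 there were 0 of the 5, against 3590 of all 10891 genes. The median difference of the 5 genes was -0.13 against 0.00 over all genes. The Signal values gave 0 calls among the 10 member probe sets, against 2259 of all 20772.

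**Figure D1:**
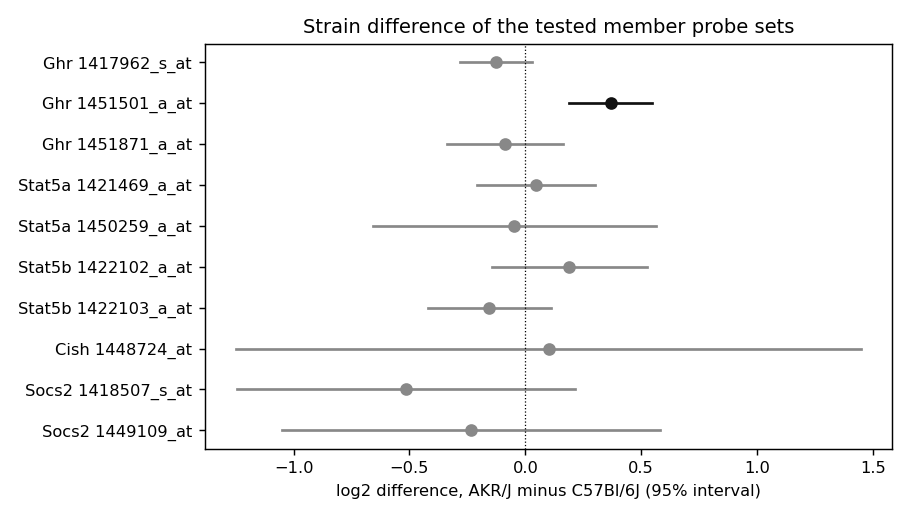
Log2 difference between strains (x axis, AKR/J minus C57Bl/6J, with 95% intervals) for each tested probe set of Ghr, Stat5a, Stat5b, Cish and Socs2; black marks an adjusted p under 0.05. The Ghr probe set 1451501_a_at is the only black point, at 0.37, and the interval of Cish is the widest, from -1.25 to 1.45.

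Stat5a and Stat5b, the transcription factors activated by these receptors, are direct neighbours on chromosome 11 with 0 annotated genes between them, and neither passed the test. Stat5a was read as 5.42, 5.49, 5.61 and 5.44 in AKR/J and 5.24, 5.65, 5.59 and 5.28 in C57Bl/6J by its brighter probe set, 1421469_a_at. The difference was 0.05 with a 95% interval of -0.21 to 0.30 (limma adjusted p = 0.817), and the C57Bl/6J arrays enclosed all AKR/J arrays. The dimmer probe set, 1450259_a_at, ran from 3.00 to 4.07 and differed by -0.05. Stat5b was read as 7.93, 7.67, 8.14 and 8.02 in AKR/J and 8.25, 8.14, 7.97 and 8.02 in C57Bl/6J by 1422103_a_at, its brighter probe set. That difference was -0.16 with an interval of -0.42 to 0.11 (adjusted p = 0.408). The other Stat5b probe set, 1422102_a_at, ran the other way at 0.19 (interval -0.14 to 0.52). It stood at 6.99 on array 1 against 6.54 to 6.57 on the other AKR/J arrays, and at 6.14 on array 7 against 6.56 to 6.61 on the other C57Bl/6J arrays.

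Cish, the feedback inhibitor that STAT5 switches on, varied widely among arrays of the same strain. Its probe set 1448724_at read 6.41, 7.01, 7.94 and 7.78 in AKR/J and 6.91, 8.54, 7.52 and 5.77 in C57Bl/6J. The highest array (6) and the lowest (8) were both C57Bl/6J and lay 6.81-fold apart, and the AKR/J arrays fell between them. The strain means were 7.28 ± 0.71 and 7.18 ± 1.16 (SD, n = 4 each), a difference of 0.10 ± 0.59 (SE; adjusted p = 0.930). The 95% interval of -1.25 to 1.45 includes changes of 2-fold in either direction, so that a difference of that size was not detectable at this spread. The deposited Signal followed the same order at the extremes, with 606.8 on array 6 and 163.4 on array 8.

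Socs2, which dampens growth hormone signalling, was the other variable member. Probe set 1449109_at read 7.91, 7.58, 8.46 and 8.46 in AKR/J and 8.94, 8.79, 8.19 and 7.42 in C57Bl/6J. Arrays 5 and 6 were highest, array 8 was lowest, and the strains overlapped (difference -0.23 ± 0.35, adjusted p = 0.701). A further probe set, 1418507_s_at, read 6.97, 6.96, 7.75 and 7.89 against 8.45, 8.20, 7.74 and 7.25, a difference of -0.51 ± 0.32 (adjusted p = 0.319). The 4 remaining Socs2 probe sets were detected on 0 to 3 of 8 arrays and were not tested.

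**Figure D2:**
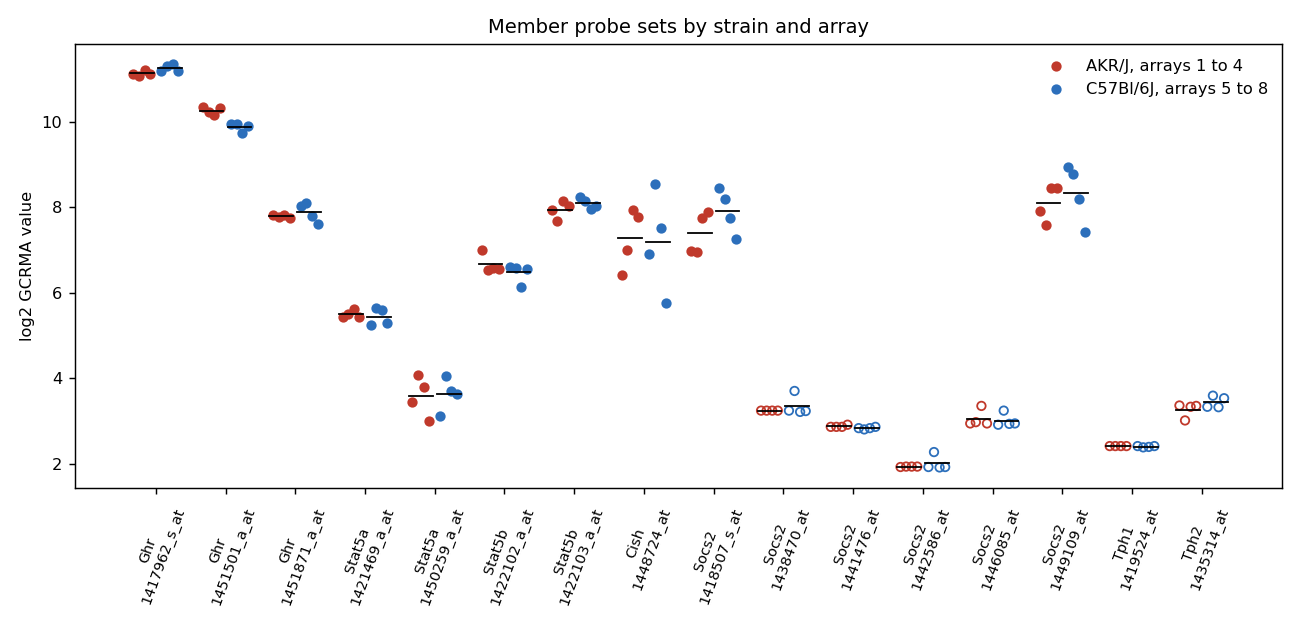
Log2 GCRMA value (y axis) of each of the 16 probe sets on each array, by strain, with bars at strain means; open circles mark probe sets that were not tested. Cish and the upper pair of Socs2 probe sets spread widely within each strain, Ghr spreads little, and Tph1 stays between 2.38 and 2.41.

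The within-strain SD, pooled over both strains, put a size on this spread. It was 0.96 for Cish, a value that only 19 of 10891 tested genes exceeded. Socs2 reached 0.58, with 152 genes above it, and both lay in the upper tail (99.8th and 98.6th percentiles). Ghr had an SD of 0.07 (6.26th percentile), and Stat5a and Stat5b had 0.16 and 0.17, close to the median of all genes at 0.18. Bcl6, named after its values were seen, reached 0.91 with 30 genes above it, but its other tested probe set, 1450381_a_at, ran only from 3.21 to 3.85 with an SD of 0.20. These values come from the brightest probe set of each gene, and others differed. Stat5a probe set 1450259_a_at had an SD of 0.43, and Ghr probe set 1451871_a_at had 0.16. These percentiles describe the 8 arrays and were not tested.

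**Figure D3:**
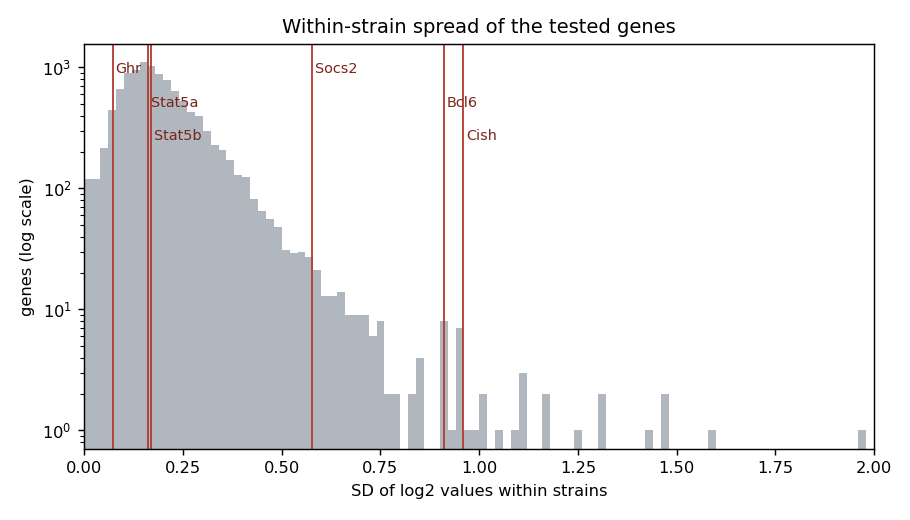
Number of tested genes (y axis, log scale) by pooled within-strain SD of their log2 values (x axis). Vertical lines place Ghr, Stat5a, Stat5b, Socs2, Bcl6 and Cish, with Cish at 0.96 and Bcl6 at 0.91 far to the right of the median of 0.18.

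Across the 8 arrays Cish and Socs2 tended to be high or low together, but the relation did not pass after adjustment. Pearson's r was 0.69 (two-sided exact permutation p = 0.0589, adjusted 0.196 over 10 pairs of member genes) and Spearman's rho was 0.57 (exact p = 0.151). Without arrays 6 and 8, the farthest from the median of Cish, r was 0.32. Leaving out the extremes of Cish narrows its range, which tends to lower r, so this value cannot tell whether the relation rests on those samples. The r of Cish and Socs2 was 0.73 with strain means removed (exact p = 0.0833) and 0.73 in the Signal values (exact p = 0.0403). It was 0.58 with Socs2 probe set 1418507_s_at, and between 0.50 and 0.92 with single arrays left out. Without array 5 it was 0.92 (exact p = 0.00397). Stat5a and Cish had r = 0.80 and rho = 0.86 (exact p = 0.0198 and 0.0107, adjusted 0.108 and 0.107), and r = 0.85 without arrays 5 and 6. In the Signal values their r was -0.12. Stat5b and Socs2 had r = 0.76 and rho = 0.67 (exact p = 0.0216 and 0.0831, adjusted 0.108 and 0.415), and r = 0.60 without arrays 2 and 5. In the Signal values r of Stat5b and Socs2 was 0.39. The dimmer tested probe sets of Stat5a and Stat5b were not used for these relations. None of the 10 pairs passed an adjusted threshold of 0.05.

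The share of probe sets detected on an array moved with some of these genes. For Stat5b r was 0.87 and rho 0.90 (exact p = 0.00144 and 0.00456; r adjusted 0.00863 over 6 relations), and r was 0.82 without arrays 1 and 2. This rests on the brighter Stat5b probe set, 1422103_a_at, and the relation was not computed for 1422102_a_at. That probe set read 6.99 on array 1, with 43.7% detected, and 6.61 on array 5, with 48.1%. For Socs2 r was 0.77 (exact p = 0.0286, adjusted 0.0859) and rho 0.74, and for Cish r was 0.47 (exact p = 0.240) and rho 0.36. For Ghr r was 0.71 and rho 0.69 (exact p = 0.0519 and 0.0694, r adjusted 0.104), and r was 0.39 without arrays 1 and 2. Its part in the spread of these genes was not tested. Within strains, the mean of the acinar markers followed Cish at r = 0.19 and that of the macrophage markers at r = 0.25. The 2 tested fat cell markers followed it at r = 0.83, the largest value of the marker lists, and the other lists lay between -0.31 and 0.26. Adipoq, the adipocyte hormone, was detected on 1 of 8 arrays, and neither it nor the listed Retn and Lep were tested. These are descriptions over 8 arrays, and the part of such cells in the spread of Cish was not tested.

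Bcl6, which STAT5 is known to repress, read 6.97, 4.95, 5.23 and 4.22 in AKR/J and 5.41, 5.28, 5.35 and 6.43 in C57Bl/6J (probe set 1421818_at). Arrays 1 and 8, where Cish was lowest, had the highest Bcl6. Over 8 arrays r with Cish was -0.68 and rho -0.69 (exact p = 0.0598 and 0.0694, r adjusted 0.351 over 10 target genes), and r was -0.74 without arrays 6 and 8. This rests on 1 of the 2 tested Bcl6 probe sets. With strain means removed r was -0.68 (exact p = 0.0347). In the Signal values it was -0.10, so the relation was not seen on that scale. Bcl6 was dim in the Signal values, at 34.2 to 153.6, and was detected on 7 of 8 arrays.

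**Figure D4:**
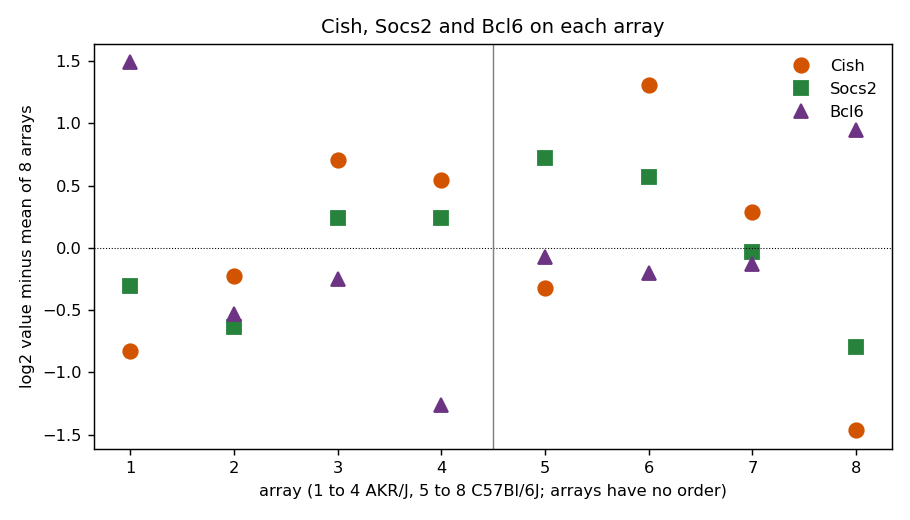
Log2 value minus the mean of 8 arrays (y axis) for Cish, Socs2 and Bcl6 on each array (x axis; the numbers carry no order). Cish is highest on array 6 and lowest on array 8, Socs2 is low on array 8 as well, and Bcl6 is highest on arrays 1 and 8.

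The genes most like a member were sought among 10890 others by the root mean square difference of their centred log2 values over 8 arrays. For Ghr probe set 1451501_a_at these were Rnasek, Rundc3a and Parp6, each at 0.05. For Cish and Socs2 the search was added after their values were seen. For Cish, Nav3 was nearest at 0.57, and Socs2 ranked 4 at 0.60. For Socs2, Hivep2 was nearest at 0.22 and Cish ranked 7950.

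Tph1 and Tph2, the tryptophan hydroxylases that start serotonin synthesis outside and inside the brain, were at the bottom of the scale. Tph1 (1419524_at) was detected on 0 of 8 arrays, with 2.41 on every AKR/J array and 2.38 to 2.41 in C57Bl/6J. Its Signal ran from 0.8 to 21.6. Tph2 (1435314_at) read 3.36, 3.01, 3.33 and 3.35 in AKR/J and 3.33, 3.59, 3.32 and 3.53 in C57Bl/6J, and was detected on 1 C57Bl/6J array. No fold is given for either gene, and a transcript below the arrays' background would not be detectable here.

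The rest of the serotonin route was measured in part. Of its 20 listed genes 13 were tested; AKR/J was higher in 3 and lower in 0, against 7.79% and 8.53% of all genes, with a median of -0.06. Gch1, which makes the first step towards the tetrahydrobiopterin cofactor of tryptophan hydroxylase, read 11.06, 11.05, 11.32 and 11.16 in AKR/J and 10.70, 10.74, 10.65 and 10.61 in C57Bl/6J. That is a rise of 0.47 ± 0.08 in AKR/J, or 1.39-fold, with no overlap (limma adjusted p = 0.00655). The other Gch1 probe set, 1429692_s_at, differed by 0.49 with overlap (adjusted p = 0.0702). Slc7a5, a carrier of large neutral amino acids, was higher by 0.55 ± 0.12 (adjusted p = 0.0199), and Pcbd2, a recycling enzyme of that cofactor, by 0.32 ± 0.07 (adjusted p = 0.0267). In the Signal values Gch1 (0.21, adjusted p = 0.254) and Pcbd2 (0.28, adjusted p = 0.198) did not pass. Slc7a5 lost its call without array 1, 2 or 6, and Pcbd2 without array 1, 2, 4, 5, 6 or 8, at adjusted p-values up to 0.0554 and 0.0720.

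Ddc, the decarboxylase that completes serotonin and dopamine synthesis, was bright in every array, at 12.81, 12.79, 12.71 and 12.73 in AKR/J against 12.93, 12.88, 12.94 and 12.56. It differed by -0.07 (95% interval -0.29 to 0.16). Slc18a1, a vesicular monoamine transporter, differed by -0.06 (interval -0.40 to 0.29), and Slc18a2, the other such transporter, was detected on 2 of 8 arrays and not tested. Of 14 listed serotonin receptors 2 were tested and neither passed (0 at an unadjusted p under 0.05, and 0 in the Signal values). Over all genes 7.79% were higher and 8.53% lower in AKR/J, and 3590 of 10891 had an unadjusted p under 0.05. In the Signal values 2259 of all 20772 probe sets passed. Htr1b differed by 0.05 and Htr3a, an ion channel, by 0.19 (adjusted p = 0.748 and 0.423). Both were dim, with log2 values of 4.31 to 4.68 for Htr1b and 2.55 to 3.23 for Htr3a, so equal expression was not shown. Without array 4, Htr3a differed by 0.03. Htr2b and Htr1d were not tested: the single Htr2b probe set was detected on 0 arrays, and 1 of the 3 of Htr1d on 1. None of 7 mast cell and enterochromaffin markers was tested, and Cpa3, Mcpt4 and Hdc were detected on 0 arrays.

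Among hormone receptors and JAK kinases, 0 of 6 tested genes passed in limma, against 7.79% of all genes higher and 8.53% lower in AKR/J. Of these 6, 1 had an unadjusted p under 0.05, against 3590 of all 10891 genes. In the Signal values 1 passed, against 2259 of all 20772 probe sets. Jak2, the kinase bound to Ghr and Prlr, differed by -0.13 (interval -0.34 to 0.09), and Jak1 by -0.25 (adjusted p = 0.296). The gene that met either of the latter criteria was Il6st, the shared receptor chain of the interleukin 6 family. Its brightest probe set differed by 0.37 (adjusted p = 0.147), against 0.60 in the Signal values (adjusted p = 0.0261). Probe set 1437303_at of Il6st, singled out after its values were seen, read 8.86, 8.83, 8.85 and 8.73 against 7.69, 7.30, 7.12 and 7.43, which is 2.69-fold higher in AKR/J (adjusted p = 0.000187). The 4 Il6st probe sets thus ranged from 0.37 to 1.43. Among STAT factors 0 of 5 passed (0 at an unadjusted p under 0.05, 0 in the Signal values), against the same shares of all genes and probe sets. Stat3 differed by -0.05 and Stat6 by -0.25, each by its brightest probe set. Stat3 probe set 1460700_at differed by -0.50 (interval -0.95 to -0.06, adjusted p = 0.122) and 1459961_a_at by -0.70 (adjusted p = 0.236). Stat6 probe set 1421708_a_at differed by 0.12 (adjusted p = 0.550).

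Of the ligands listed, Prl and Gh, the pituitary hormones themselves, were detected on 0 of 8 arrays by each of their probe sets. Igf1, the growth factor that growth hormone induces, was the only tested gene of that list and was lower in AKR/J. Probe set 1452014_a_at read 3.58, 4.14, 3.95 and 2.55 in AKR/J, where it was detected on 0 of 4 arrays, and 5.64, 5.47, 5.86 and 6.03 in C57Bl/6J, where it was detected on all 4. The difference was -2.20 ± 0.33 (SE; 95% interval -2.95 to -1.44; limma adjusted p = 0.00367), and between -2.39 and -1.86 with single arrays left out. This probe set entered the test through its C57Bl/6J arrays alone. Its p-value therefore sets detected values against background values and is not further support for the difference. The means of 1452014_a_at lay at least 4.59-fold apart. Here "at least" refers only to its AKR/J values lying at background and not to the error of the difference. The other 3 Igf1 probe sets differed by -0.23 to -0.95 with adjusted p-values of 0.0680 to 0.272. In AKR/J, 1434413_at was detected on 4 of 4 arrays (1.17-fold lower) and 1437401_at on 3 of 4 (1.93-fold lower), while 1419519_at was detected on 0. The bound of 4.59-fold therefore describes 1 probe set and not the gene. Macrophages are known to make Igf1, and the macrophage markers were lower in AKR/J as well (median -0.68); their part in the Igf1 difference was not tested.

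Of 18 tested negative regulators of JAK-STAT signalling, 1 rose in AKR/J, 1 fell and the other 16 missed the threshold (median -0.04), against 7.79% and 8.53% of all genes. Socs7, a member of the same protein family as Cish and Socs2, read 10.11, 10.06, 10.07 and 10.11 in AKR/J and 9.58, 9.63, 9.69 and 9.53 in C57Bl/6J. It was higher by 0.48 ± 0.06, or 1.40-fold (adjusted p = 0.00168), and the arrays of each strain lay close together. The other tested Socs7 probe set, 1434834_at, differed by 0.27 with overlap (adjusted p = 0.126). Pias1, a SUMO ligase that restrains STAT activity, was lower by -0.38 ± 0.09 (adjusted p = 0.0250). That call was lost in the Signal values (-0.17, adjusted p = 0.454) and without array 1, 4, 6 or 7 (adjusted p up to 0.0663). Pias1 probe sets 1455611_at (-0.49, adjusted p = 0.00745) and 1455486_at (-0.30, adjusted p = 0.116) were lower in AKR/J without overlap too. The mean of the tested Pias1 probe sets passed (-0.39, adjusted p = 0.00864).

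Of 18 tested genes described as prolactin or STAT5 targets, 2 rose in AKR/J, 4 fell and the other 12 missed the threshold, with a median of -0.22. Over all genes 7.79% were higher, 8.53% were lower and the median was 0.00. Cdkn2c, an inhibitor of the cyclin-dependent kinases of G1 phase, was higher by 0.95 ± 0.16 (adjusted p = 0.00658), and Men1, the gene of menin and outside the naming rule, by 0.42 (adjusted p = 0.0162). Matn2, an extracellular matrix protein, was lower in AKR/J by -1.42 ± 0.19 (adjusted p = 0.00240). Ivd, an enzyme of leucine breakdown, was lower by -0.78 ± 0.15 (adjusted p = 0.0113) and Slc2a2, the glucose transporter of beta cells, by -0.56 ± 0.11 (adjusted p = 0.0152). Igf1 was lower as well. Ccnd2, also outside the naming rule, missed the threshold by its brightest probe set (0.19, adjusted p = 0.253). Its probe sets 1416123_at (-1.08, adjusted p = 0.00862) and 1448229_s_at (-1.29, adjusted p = 0.00231) were lower in AKR/J without overlap. The other tested Ccnd2 probe sets differed by 0.03 to 0.19, with adjusted p-values of 0.161 to 0.910. The cell cycle genes were higher in AKR/J in 10 of 14 cases (median 0.99) and none was lower, while the member genes had no call; the comparison of these lists was not tested.

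**Figure D5:**
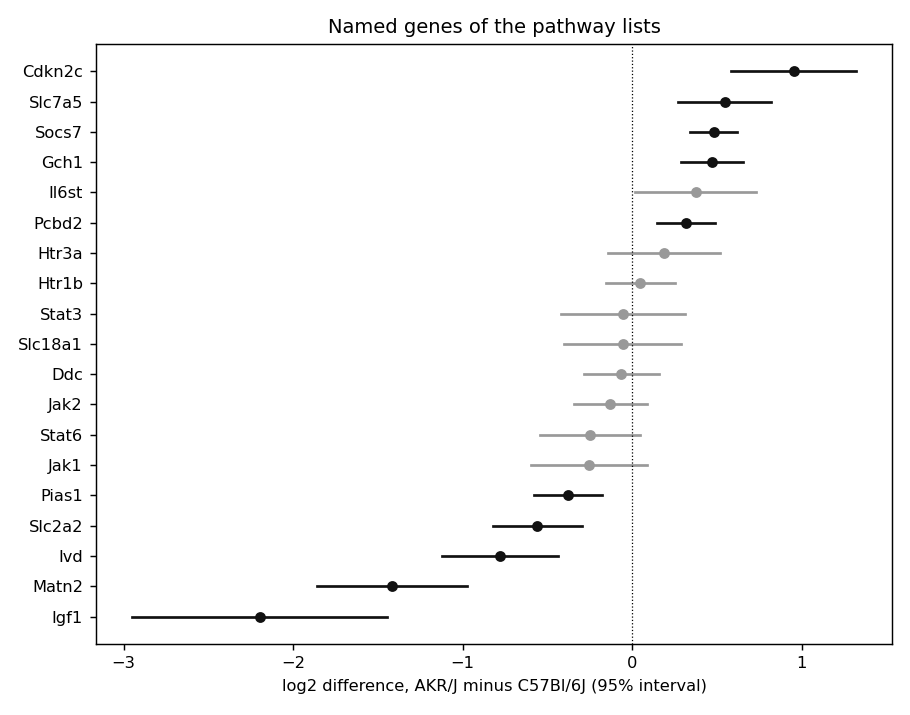
Log2 difference between strains (x axis, with 95% intervals) of named pathway genes that are not members, each from its brightest tested probe set; black marks an adjusted p under 0.05. Igf1 at -2.20 and Matn2 at -1.42 lie farthest to the left and Cdkn2c at 0.95 farthest to the right, while Jak2, Stat3, Ddc and Slc18a1 lie near 0.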

How the data were processed

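Islet RNA of 8 samples was measured, 4 per strain, grouped by the strain in each title; p-values measure the spread between pools of 2 mice. The authors used GCRMA, per the submitters' processing notes, for the linear intensity values of the series value table, and its version is not stated. Each array's own deposited file gives, per the file headers, an intensity (Signal, of MAS5 type) with a detection p-value. GCRMA corrects background by probe sequence and compresses values near background, so folds of dim probe sets are uncertain. Value table columns matched their own array's signal at r of at least 0.676 and other arrays at most 0.496.

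Values were log2-transformed. Probe sets with a detection p under 0.05 on at least 4 arrays were fitted with limma 3.58.1 (lmFit and eBayes, R 4.3.3) and adjusted by Benjamini-Hochberg over all 20772. A gene was read from its brightest tested probe set. The annotation names 1 symbol for 34945 probe sets, several for 932 and none for 9160; 34741 matched RefSeq (GRCm38.p6), which changed 0 symbols. A genome build for the files was not given in the sources used here. Where a probe set was detected on no array of the dimmer strain, its fold is a bound, taken against the higher, per array, of its own value and the lowest detected value. Correlations over arrays, and gaps between probe sets of one gene, were tested by exact permutation of arrays. Figures used Python 3.11.15 with matplotlib 3.10.9.

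The members and lists were chosen with earlier results of these data known. Named genes are the members, up to 5 called genes of each list (smallest p first) or its 2 brightest where none was called, and 9 fixed genes of the pathway. Alternatives were the MAS5-type signals (floor at the 5th percentile, quantile normalized), other filters, normalizations, variance models and array weights, other probe set rules, and each array left out. The files give no scan date, so no batch was fitted. In simulated data for this comparison, 200 of 20772 probe sets were changed, with independent normal noise. The fit recovered 43.3% of those changed 1.5-fold, 77.6% at 2-fold and 95.5% at 4-fold, with 10 false calls among 154. In the real comparison 14.3% of probe sets were called, so these rates may not carry over to it.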

Additional observations from a re-analysis of the deposited data

Results flagged for a closer look

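A sample lay far from the other 3 of its strain in 6 of 60 groups of 4 arrays examined, where chance gives about 5%. Stat5b probe set 1422102_a_at stood at 6.99 on AKR/J array 1 (others 6.54 to 6.57) and at 6.14 on C57Bl/6J array 7 (others 6.56 to 6.61). Bcl6 stood at 6.43 on C57Bl/6J array 8 (others 5.28 to 5.41), the array with the lowest Cish. Matn2 was at 6.83 on C57Bl/6J array 6 (others 7.46 to 7.57). Pcbd2 was at 9.36 on C57Bl/6J array 7 (others 9.12 to 9.14). Htr3a was at 3.23 on AKR/J array 4 (others 2.61 to 2.62), all near the bottom of the scale.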

How the results depend on the processing

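The number of member probe sets called was 1, and 0 with the MAS5-type signals; with single arrays left out it ranged from 0 to 1. Ghr probe set 1451501_a_at differed by 0.26 with the MAS5-type signals, which ended its call, and by 0.32 to 0.41 with single arrays left out; without array 1 or 4 (0.34 each) it did not pass. Read as a gene, Ghr went from -0.13 to 0.051 with the mean of its probe sets and to 0.37 without the _x_at and _s_at probe sets, since 1417962_s_at is then left out; Stat5b went from -0.16 to 0.017 with the mean. The Cish and Socs2 correlation, added after seeing the data like the 2 results that follow, was 0.731 in the MAS5-type signals and 0.497 to 0.920 with single arrays left out. Cish and Bcl6 gave -0.683 within strains and -0.780 to -0.573 with single arrays left out. The gap between the Ghr probe sets was 0.28 in the MAS5-type signals and 0.42 to 0.56 with single arrays left out. The cause of these changes was not tested beyond the probe sets and arrays named. Slc7a5 lost its call with no filter (adjusted p = 0.0511), and Igf1 with detection on all 8 arrays, where another of its probe sets stood for it (-0.23, adjusted p = 0.256). Il6st passed with the mean of its probe sets (0.68, adjusted p = 0.0147). Of the called genes of the pathway lists, 11 in the main setting, 8 to 13 passed with single arrays left out. No paired analysis was possible because the sample numbers, 1 to 4 and 5 to 8, are not shared between the strains. Low signal over background limits Tph1, Tph2 and 4 Socs2 probe sets, which were not tested. It also limits Htr1b and Htr3a, which were tested.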
